A study of Mus musculus with 12 samples.

Results

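The genes of AMP-activated protein kinase (AMPK) were followed across 4 organs of mice on a normal chow or high-fat diet. They are the 7 genes that encode its subunits, Prkaa1, Prkaa2, Prkab1, Prkab2, Prkag1, Prkag2 and Prkag3, and the genes of the 2 kinases that activate it, Stk11 and Camkk2. They were taken by gene symbol, and all 9 were found among the 22276 symbols measured. Male C57BL/6J mice received a normal chow diet with vehicle (NCD-veh), a high-fat diet with vehicle (HFD-veh) or a high-fat diet with narciclasine (HFD-ncls), an alkaloid of Narcissus plants. The diets ran from 8 wk of age and the vehicle or narciclasine from 10 wk of age, and tissues were taken at 17 wk. RNA of white fat (WAT), brown fat (BAT), liver and quadriceps muscle was sequenced as 1 library for each of the 12 combinations of organ and group. The labels name no transgene or deletion, and how many mice made up a library is not given in the sources used here. Muscle of narciclasine-treated mice on chow was not analysed here.

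AMPK is a complex of 3 proteins that senses a fall in cellular energy. The alpha subunit is the kinase itself, the beta subunit is the scaffold that also binds glycogen, and the gamma subunit binds AMP, ADP or ATP. LKB1, the product of Stk11, phosphorylates and activates the alpha subunit, which bound AMP favours, and CaMKK2 does so when calcium rises. Active AMPK is known for driving glucose uptake and fatty acid oxidation in muscle and for restraining fatty acid and cholesterol synthesis in liver and fat. Transcript levels say nothing of its phosphorylation, which these libraries do not measure.

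Levels are given as FPKM, the number of fragments for each kilobase of exon relative to all those mapped, which is a scale per length and so allows genes to be set side by side. Between 9130 and 12052 genes per library had an FPKM of at least 1, and the smallest steps between FPKM values put the depth at about 19000000 to 26900000 fragments. The 3 libraries of an organ came from 3 different groups, so each SD over an organ (n = 3) also holds whatever diet and drug did. Across the 7125 genes expressed in every library, the median gene was lower in BAT, liver and muscle than in WAT, by log2 differences of -0.76, -0.79 and -0.88. Organ differences against WAT were therefore also computed after rescaling each library to the median gene. Between the other 3 organs the median shifts were -0.03 for liver minus BAT, -0.11 for muscle minus BAT and -0.09 for muscle minus liver. The defining markers of each labelled organ were present in its own libraries. The 10 fast muscle fibre genes summed to 108003 to 112316 FPKM in muscle, the 7 hepatocyte genes with a value to 41964 to 46529 FPKM in liver, the 6 white adipocyte genes to 16086 to 26244 FPKM in WAT and the 6 brown adipocyte genes to 8225 to 10119 FPKM in BAT. Genes of other organs stood apart in some libraries, namely fast muscle genes in BAT and in HFD-veh liver, and liver genes in HFD-veh muscle and, at a median of 0.0744% and 0.236% of their liver level, in HFD-veh and HFD-ncls WAT, and their values are given beside the results they touch.

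The 3 subunit genes with their highest level in muscle were Prkaa2, Prkab2 and Prkag3, 1 from each subunit family. On the mm9 build, Prkaa2 lies at chr4:104702479-104782495 on the minus strand, Prkab2 at chr3:97462116-97477735 on the plus strand and Prkag3 at chr1:74786073-74795795 on the minus strand. Their promoters are shown because these genes share the muscle pattern, and the start site windows run from 250 bases before to 50 bases after the annotated start in RefSeq (GRCm38.p6). Capitals mark CAGCTG, a form of the E-box CANNTG that myogenic factors such as MyoD are known to bind. The Prkag3 window is chr1:74748906-74749205 on the minus strand, that of Prkab2 chr3:97657962-97658261 on the plus strand and that of Prkaa2 chr4:105109849-105110148 on the minus strand.
Prkag3: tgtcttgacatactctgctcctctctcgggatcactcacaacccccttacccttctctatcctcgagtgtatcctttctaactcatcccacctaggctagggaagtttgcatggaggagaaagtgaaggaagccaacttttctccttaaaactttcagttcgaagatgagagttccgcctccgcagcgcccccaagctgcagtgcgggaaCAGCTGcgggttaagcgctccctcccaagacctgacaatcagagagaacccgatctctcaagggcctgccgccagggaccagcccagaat
Prkab2: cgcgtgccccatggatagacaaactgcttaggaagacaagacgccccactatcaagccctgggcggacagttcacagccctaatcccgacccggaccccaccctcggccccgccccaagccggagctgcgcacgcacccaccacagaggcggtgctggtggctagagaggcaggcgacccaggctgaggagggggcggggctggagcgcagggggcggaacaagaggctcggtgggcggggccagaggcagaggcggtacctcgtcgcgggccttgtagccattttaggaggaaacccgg
Prkaa2: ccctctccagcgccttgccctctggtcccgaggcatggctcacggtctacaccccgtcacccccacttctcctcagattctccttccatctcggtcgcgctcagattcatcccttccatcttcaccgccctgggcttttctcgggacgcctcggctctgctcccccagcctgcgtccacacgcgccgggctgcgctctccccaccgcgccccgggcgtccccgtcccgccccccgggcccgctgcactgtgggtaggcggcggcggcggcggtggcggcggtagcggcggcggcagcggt
CAGCTG was found once, starting 40 bases before the start of Prkag3, and in none of the other 10 windows of the 9 genes (Prkag2 has 3 starts). Of all 32851 promoter windows, 16.3% hold CAGCTG and 72.3% hold CANNTG. A MEF2-like motif, the binding motif of another muscle factor, was in none of the 11 windows and in 3.69% of all. The GC content of the Prkag3 window was 54%, near the median of 52.7% over all windows, against 68% for Prkab2 and 72.7% for Prkaa2. The number of CpG dinucleotides was 11, 23 and 35 for the 3 windows, with a median of 7 over all.

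The alpha subunit changed over between organs. Prkaa1 had its highest level in WAT, where the NCD-veh, HFD-veh and then HFD-ncls values were 21.3, 13.6 and 13.7 FPKM. It was 5.31, 4.64 and 4.91 FPKM in BAT, 1.89, 2.55 and 1.80 in liver, and 2.81, 2.77 and 3.04 in muscle, in the same order of groups. The 3 WAT libraries lay above the 3 of every other organ without overlap. Prkaa1 was lower in liver than in WAT by a log2 difference of -2.89 ± 0.20 (SE), or 7.40-fold (adjusted p = 1.39e-06, limma), and 4.32-fold lower after rescaling. Prkaa2 had its highest level in muscle, followed by liver. It reached 36.2, 27.3 and 34.0 FPKM in muscle and 4.46, 6.99 and 5.69 in liver, but only 1.66, 1.81 and 1.75 in WAT and 2.08, 1.24 and 0.945 in BAT. Muscle exceeded WAT by 4.14 ± 0.27 (log2, SE), or 17.6-fold (adjusted p = 1.02e-06, limma), and liver exceeded WAT by 1.64 ± 0.27, or 3.11-fold (adjusted p = 0.000422, limma). The difference of BAT from WAT in Prkaa2 was not called (-0.34, 95% CI -0.96 to 0.27), turned to 0.37 after rescaling, also not called, and was called at -0.68 when the NCD-veh BAT library was left out. For Prkaa1 the difference of muscle from liver, 0.46 ± 0.20, missed the threshold (adjusted p = 0.0572, limma), and it was called after rescaling (0.55), with limma's mean trend or without the group term (adjusted p = 0.0495 and 0.0424, limma), and without NCD-veh WAT or HFD-veh liver (0.67 without the latter).

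Of the beta subunits, Prkab2 differed widely between muscle and liver. It was 99.7, 90.1 and 95.01 FPKM in muscle, where it was the most abundant of the 9 transcripts in each library. The levels were 5.35, 5.64 and 5.10 FPKM in WAT, 2.62, 1.47 and 1.28 in BAT, and 0.395, 0.392 and 0.415 in liver. All 4 organs were separate from each other, and the muscle to liver difference came to 7.57 ± 0.20 (log2, SE), or 190-fold (adjusted p = 1.76e-08, limma). The liver values rest on about 46 to 48.6 fragments per library, so they are well above 0. Prkab1, the other scaffold gene, was even across WAT, BAT and liver, with means of 9.15 ± 0.44, 9.26 ± 1.94 and 9.46 ± 0.83 FPKM (SD, n = 3), and lower in muscle at 3.82 ± 0.10. Muscle was 2.36-fold below WAT in Prkab1 (adjusted p = 4.14e-05, limma), and 1.301-fold below it after rescaling. The difference of BAT from WAT in Prkab1 was -0.00 (95% CI -0.33 to 0.33) and that of liver from WAT 0.04 (95% CI -0.29 to 0.37) in the deposited values, and they became 0.75 and 0.82 after rescaling, both called.

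The leading gamma subunit gene was Prkag1 in WAT and liver, Prkag2 in BAT and Prkag3 in muscle. Prkag1 was measured at 15.8 to 36.4 FPKM in all 12 libraries, with means of 27.8 ± 1.71 in WAT, 30.0 ± 5.87 in BAT, 17.1 ± 1.97 in liver and 19.8 ± 0.95 in muscle (SD, n = 3). Its difference of muscle from WAT was -0.49 ± 0.16 in the deposited values (adjusted p = 0.0163, limma). It was 0.38 after rescaling (adjusted p = 0.0396, limma), so its direction depends on the scale. When single libraries were left out, the deposited difference ranged from -0.59 to -0.42, and in some of these fits it was no longer called. Prkag2 led in BAT, at 39.9, 41.5 and 58.0 FPKM in the order of groups above. It was 19.1, 14.5 and 14.0 in WAT, 8.18, 8.13 and 10.3 in liver, and 4.76, 3.58 and 2.69 in muscle, with no overlap between organs. BAT exceeded WAT by 1.53 ± 0.24 (log2, SE), or 2.90-fold (adjusted p = 0.000363, limma), and muscle by 12.5-fold. Liver was below WAT in Prkag2 by -0.83 (adjusted p = 0.0105, limma), a difference that rescaling took to -0.05, no longer called.

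Prkag3, the gamma subunit best known from fast skeletal muscle, was at 42.3, 76.9 and 36.5 FPKM in the muscle libraries. WAT held 3.22, 3.29 and 2.84 FPKM. BAT held 0.824, 0.113 and 0.0453 FPKM, the last of these about 2.67 fragments, and liver held 0.050, 0.223 and 0.340. Muscle was far above all others, WAT came second, and BAT and liver overlapped. Muscle exceeded WAT by 3.94 ± 0.67 (log2, SE), or 15.4-fold (adjusted p = 0.000482, limma). WAT in turn was above BAT by 10.5-fold (adjusted p = 0.00145, limma) and above liver by 11.6-fold (adjusted p = 0.000987, limma), and after rescaling by 6.62-fold and 7.21-fold, all still called. Without HFD-veh muscle the muscle minus WAT difference was 3.58, and without NCD-veh BAT, the BAT library with most Prkag3, BAT minus WAT went from -3.39 to -4.36, muscle minus BAT from 7.33 to 8.30 and liver minus BAT from -0.14 to 0.83, the last not called either way. Liver minus WAT was -2.85 without NCD-veh liver and -4.14 without HFD-ncls liver, and muscle minus liver 6.79 and 8.08. The WAT level of Prkag3 was 4.27% to 7.76% of the muscle library of the same group, while the 10 fast muscle fibre genes in WAT stood at a median of 0.0112% to 0.0117% of their muscle level, and none of them exceeded 0.243%. Prkag3 overlaps no other annotated gene, and its WAT values correspond to about 126 to 157 fragments. Where the Prkag3 transcripts of WAT come from was not tested.

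**Figure D1:**
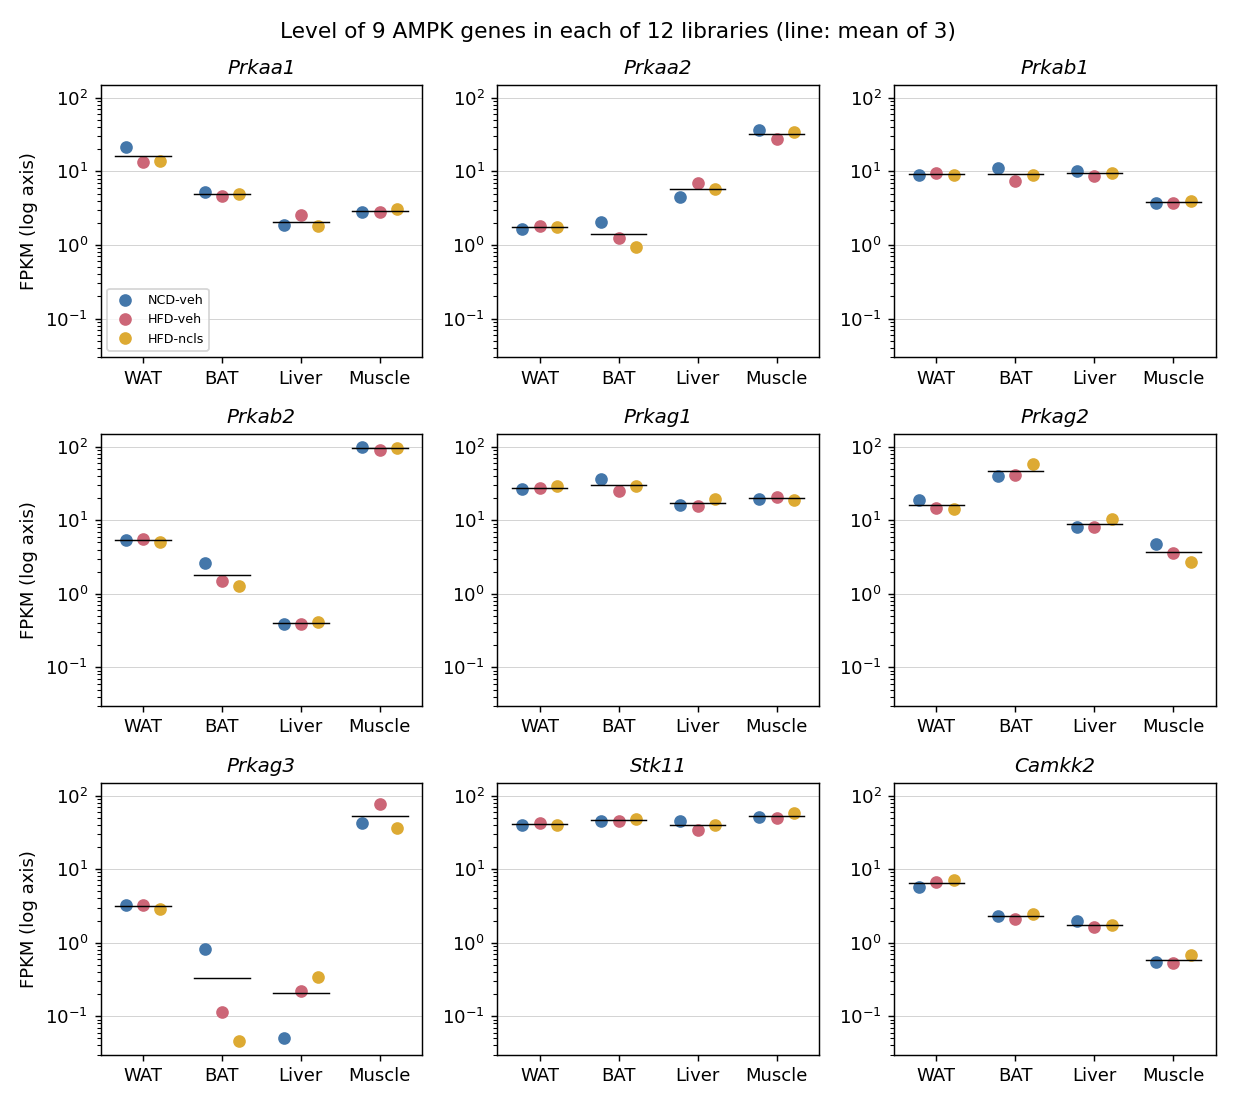
FPKM (log axis) of the 9 AMPK genes by organ, 1 point per library coloured by group, with a line at the mean of the 3 libraries. Prkaa2, Prkab2 and Prkag3 are highest in muscle, Prkaa1 and Camkk2 in WAT and Prkag2 in BAT, while Stk11 stays between 34.0 and 57.4 FPKM.

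The upstream kinases were unlike each other. Stk11 was between 34.0 and 57.4 FPKM in all 12 libraries, with means of 40.7 ± 1.82 in WAT, 46.0 ± 2.06 in BAT, 40.0 ± 5.82 in liver and 52.9 ± 3.96 in muscle (SD, n = 3). Muscle was above liver by 0.41 ± 0.13 (adjusted p = 0.0179, limma) and above WAT by 0.37 ± 0.13 (adjusted p = 0.0240, limma). These 2 calls were fragile: the first was lost without HFD-veh liver, HFD-ncls liver or HFD-ncls muscle (0.31, 0.40 and 0.36), and the second without NCD-veh WAT, HFD-ncls WAT, HFD-veh muscle or HFD-ncls muscle (0.34, 0.31, 0.38 and 0.32). Against WAT, Stk11 of liver was at -0.04, not called, and of BAT at 0.18, not called. These became 0.75 and 0.94 after rescaling, both called. The muscle differences became 1.25 against WAT and 0.498 against liver after rescaling, both called. Camkk2 fell from WAT to muscle. It was 5.64, 6.62 and 7.11 FPKM in WAT, 2.28, 2.13 and 2.48 in BAT, 1.95, 1.62 and 1.71 in liver, and 0.547, 0.536 and 0.683 in muscle. The organs did not overlap, and muscle was 9.53-fold below WAT (adjusted p = 9.43e-08, limma), or 5.38-fold after rescaling. The step from BAT to liver in Camkk2 was small, at -0.37 ± 0.13 (adjusted p = 0.0343, limma). It was lost when any 1 of 6 libraries was left out, namely HFD-ncls WAT, each of the 3 BAT libraries, HFD-veh liver or HFD-ncls liver, with values of -0.27 to -0.39 there, and also with limma's mean trend (adjusted p = 0.0514, limma). Stk11 was thus the more abundant kinase transcript in every library, by a mean of 40.7 against 6.46 FPKM in WAT and 52.9 against 0.588 FPKM in muscle.

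In the fit over all 12 libraries, 9 of 9 members differed between organs (adjusted p of 0.0439 for Stk11 and at most 0.00219 for the other 8, limma), but so did 97.8% of the 13648 genes tested. The call for Stk11 held when HFD-veh WAT or NCD-veh liver was left out and was lost when any 1 of the other 10 libraries was (adjusted p of 0.0551 to 0.156, limma). Between pairs of organs, 5 members were called for BAT minus WAT (77.9% of all genes), 7 for liver minus WAT (81.6%), 9 for muscle minus WAT (82.2%), 6 for liver minus BAT (66.3%), 8 for muscle minus BAT (68.0%) and 7 for muscle minus liver (74.7%). With so many genes called, the members' counts do not set them apart, and their sizes and directions carry the description. Called in the same direction on both scales were 5, 5, 8, 6, 8 and 7 members for these 6 pairs. Of the 13648 genes, 8933, 10183, 10413, 9115, 9334 and 10249 were called on the rescaled values. How many of all genes were called on both scales was not computed. In muscle minus liver, Prkaa2, Prkab2, Prkag3 and Stk11 were higher and Prkab1, Prkag2 and Camkk2 lower.

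**Figure D2:**
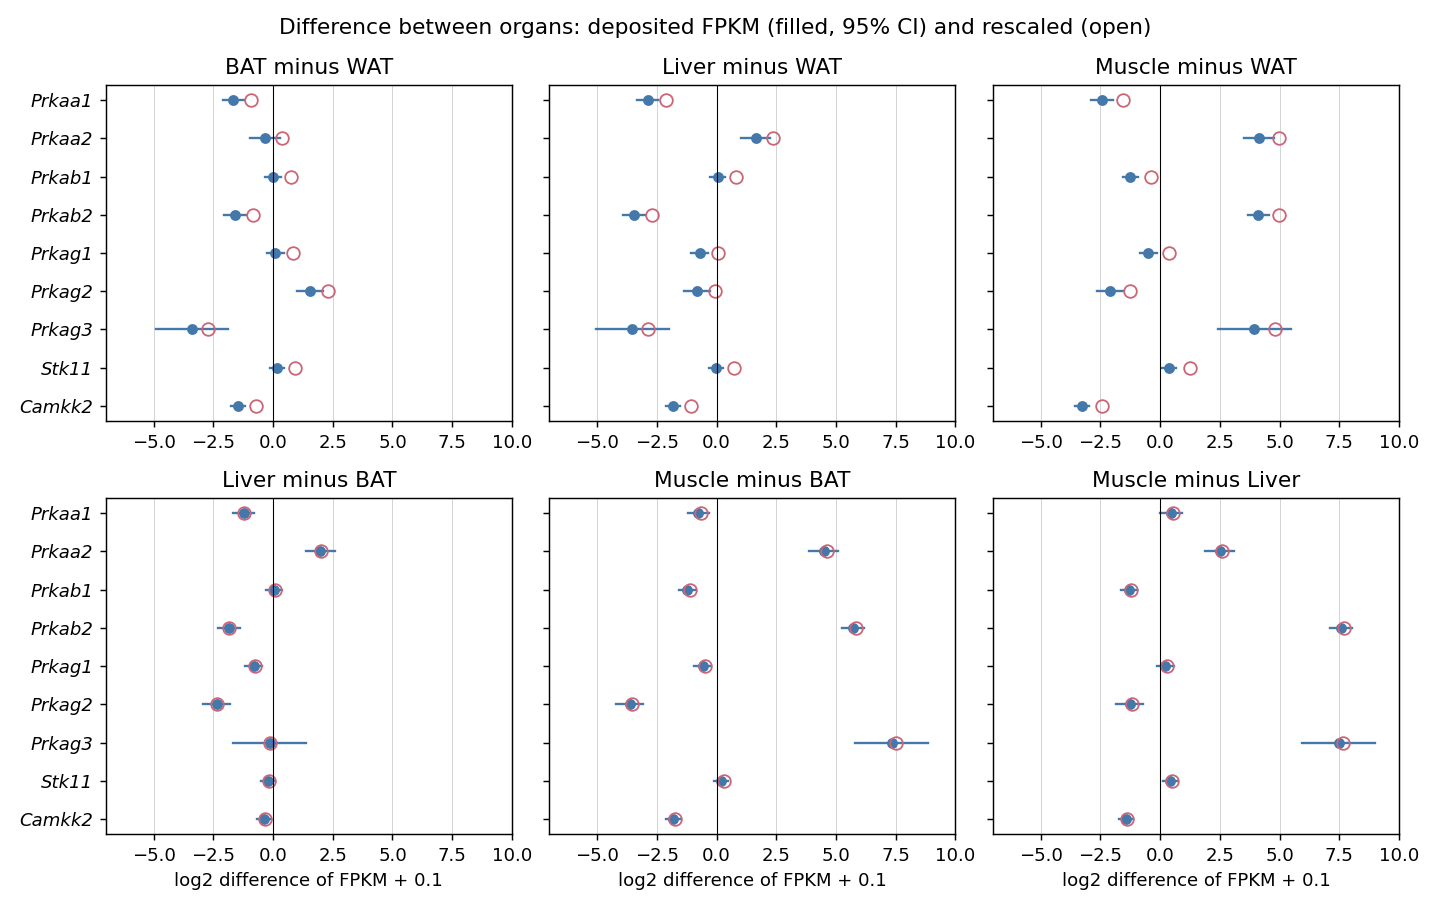
Log2 differences of FPKM + 0.1 between organs for the 9 genes, 1 panel per pair of organs. Filled points with 95% confidence intervals (limma) are deposited values and open points are rescaled values. The pairs with WAT move to the right on rescaling, so that Prkag1 for muscle minus WAT goes from -0.49 to 0.38, while the other 3 pairs barely move.

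Shares within each family, which do not depend on the scale of a library, showed the choice of subunit in each organ. In WAT, Prkaa1 made up 89.9% ± 2.48 of the alpha transcripts, Prkab1 63.1% ± 0.51 of the beta and Prkag1 59.5% ± 4.97 of the gamma transcripts (SD, n = 3). BAT had the same alpha and beta genes in the lead, Prkaa1 at 78.2% ± 6.05 and Prkab1 at 84.1% ± 3.24, but Prkag2 led the gamma genes at 60.3% ± 7.70. Liver combined a Prkaa2 share of 73.2% ± 2.84 with a Prkab1 share of 95.9% ± 0.33 and a Prkag1 share of 65.4% ± 0.82. In muscle the lead went to Prkaa2 at 91.8% ± 1.00, Prkab2 at 96.1% ± 0.20 and Prkag3 at 67.4% ± 7.37. Each leading gene led in all 3 libraries of its organ. The family sums were uneven as well: muscle held 35.4 ± 4.67 FPKM of alpha, 98.8 ± 4.82 of beta and 75.4 ± 22.9 of gamma transcripts, and liver 7.79 ± 1.61, 9.86 ± 0.83 and 26.2 ± 3.31. WAT held 17.9 ± 4.34, 14.5 ± 0.69 and 46.9 ± 1.63, and BAT 6.37 ± 0.88, 11.05 ± 2.58 and 76.8 ± 10.3. In bulk RNA, fewer cells of a type and less transcript per cell cannot be told apart, so the shares describe each tissue with all its cell types.

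**Figure D3:**
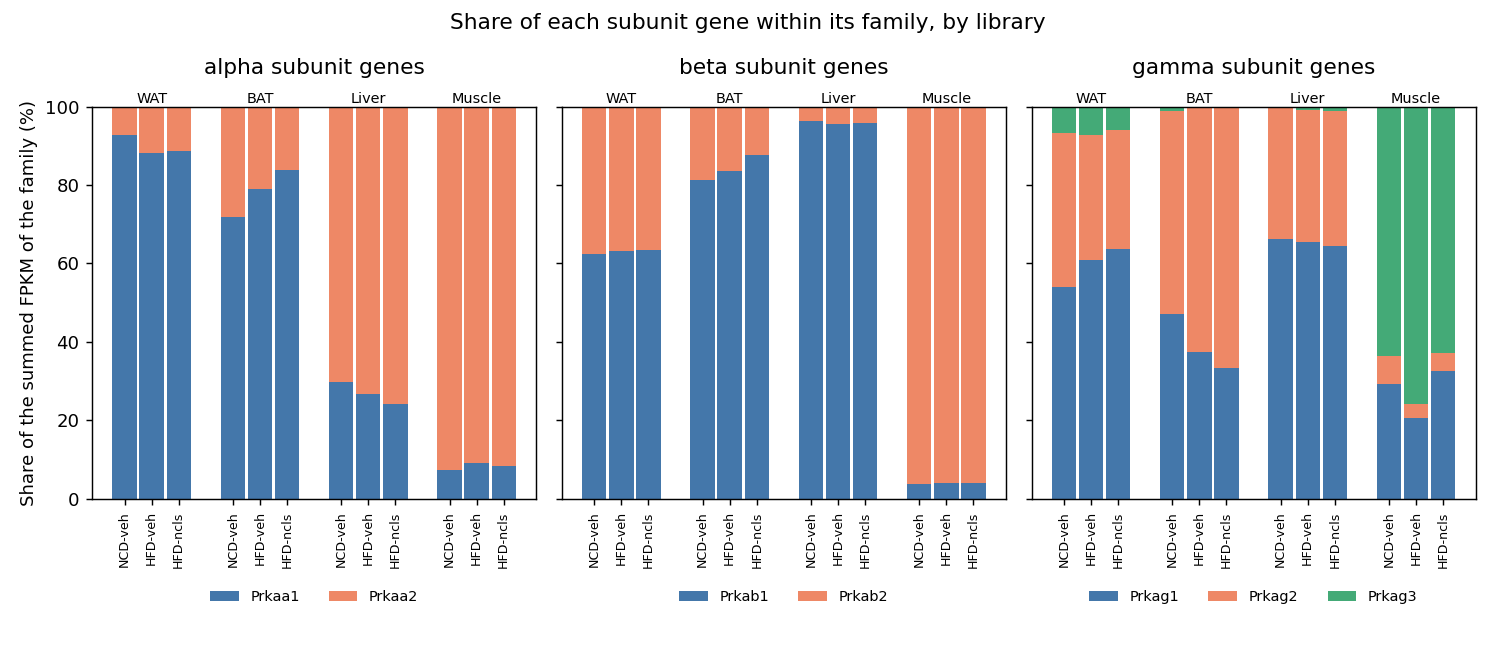
Share (%) of each gene in the summed FPKM of the alpha, beta and gamma genes, 1 bar per library. Muscle bars are mostly Prkaa2, Prkab2 and Prkag3, and the HFD-veh muscle library has the largest Prkag3 share, 75.9%.

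The diet comparison asked whether high-fat feeding altered these genes within an organ. It rests on 1 library against 1, so it has no replicate check and no test, and a fold of 1.4 on FPKM + 0.1 was used to describe it. Members counted here reached an FPKM of 1 in either library. In WAT, 1 of 9 members passed, Prkaa1, which was 1.56-fold lower in HFD-veh, where 13.0% of all genes were lower and 16.3% higher by that fold. Prkag2 was next, at 1.31-fold lower. Genes of other cell types differed between the same 2 WAT libraries. The 6 macrophage genes with a value summed to 628 FPKM in NCD-veh and 876 in HFD-veh, and the 4 endothelial genes to 123 and 200. By over 1.4-fold, 3 genes of each list were higher and 0 lower. The 6 white adipocyte genes summed to 26244 and 17420 FPKM, but Adipoq, Retn and Cfd were lower and Lep higher by over 1.4-fold. None of the genes in these lists was at 0 in either library, and their part in the Prkaa1 difference was not tested.

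In BAT, 4 of 8 members were lower in HFD-veh than in NCD-veh and none higher, beside 8.24% of all genes lower and 9.34% higher. They were Prkab2 (1.73-fold), Prkaa2 (1.63-fold), Prkab1 (1.51-fold) and Prkag1 (1.47-fold), while Prkag2 and Stk11 had ratios of 1.04 and 0.988. All 4 also passed 1.4-fold after rescaling within BAT, none reached 2-fold, and with a pseudocount of 1 in place of 0.1 Prkaa2 missed 1.4-fold (log2 ratio -0.46). Prkag3 did not pass the filter, with 0.824 FPKM in NCD-veh and 0.113 in HFD-veh. In liver, Prkaa2 was 1.55-fold higher in HFD-veh (1 of 7 members, beside 13.3% of genes higher and 10.5% lower), and Prkaa1 was 1.33-fold higher and Stk11 1.34-fold lower. The fast muscle genes moved with Prkaa2 in liver: the 10 genes summed to 2.20 FPKM with NCD-veh, 70.2 with HFD-veh and 3.16 with HFD-ncls, with 4, 0 and 5 of them at 0. In HFD-veh liver they stood at a median of 0.0614% of muscle and Prkaa2 at 25.6%, and their part in the Prkaa2 difference was not tested. In muscle, Prkag3 was 1.82-fold higher in HFD-veh (1 of 8 members, beside 7.74% of genes higher and 5.51% lower), at 76.9 against 42.3 FPKM. Prkaa2 and Prkag2 were each 1.32-fold lower there, and Prkab2 and Prkag1 were at ratios of 0.904 and 1.06.

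The narciclasine comparison set HFD-ncls against HFD-veh, again with 1 library each. No member passed 1.4-fold in WAT, where 6.39% of all genes were higher and 1.28% lower. None passed in BAT (2.25% higher and 6.28% lower) or liver (6.88% higher and 8.07% lower). In muscle, 1 of 8 members passed, Prkag3, which was 2.10-fold lower in HFD-ncls, beside 8.46% of genes higher and 5.48% lower. Prkag3 in HFD-ncls muscle was thus near its NCD-veh level, at 36.5 against 42.3 FPKM, and the HFD-veh library was the one that stood apart. That library also differed in other ways. Its 6 slow muscle fibre genes summed to 6.94 FPKM, against 44.4 in NCD-veh and 47.5 in HFD-ncls muscle, and its 7 hepatocyte genes to 264 FPKM, against 16.2 and 7.74. None of the 7 was at 0 in HFD-veh muscle, while Fgb was at 0 in both others. Of the 6 white adipocyte genes, Adipoq, Lep, Retn and Plin1 were higher in HFD-veh than in NCD-veh muscle by over 1.4-fold. Cfd went the other way, lower in HFD-veh by over 1.4-fold. Adipoq, Lep, Retn and Plin1 were lower again in HFD-ncls. The sums over the 6 genes were 331 FPKM with NCD-veh, 367 with HFD-veh and 362 with HFD-ncls. The 10 fast fibre genes were alike in the 3 libraries, at 112316, 112266 and 108003 FPKM. Liver itself held at most 0.340 FPKM of Prkag3. The part of slow fibre, liver and adipocyte transcripts in the Prkag3 difference was not tested. Closest to the threshold from below were Prkag2 in BAT, at 58.0 in HFD-ncls against 41.5 FPKM in HFD-veh, and Prkaa1 in liver, at 1.80 against 2.55 FPKM. Both passed it after rescaling within the organ. Stk11 lay between ratios of 0.918 and 1.18 in the 4 organs.

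**Figure D4:**
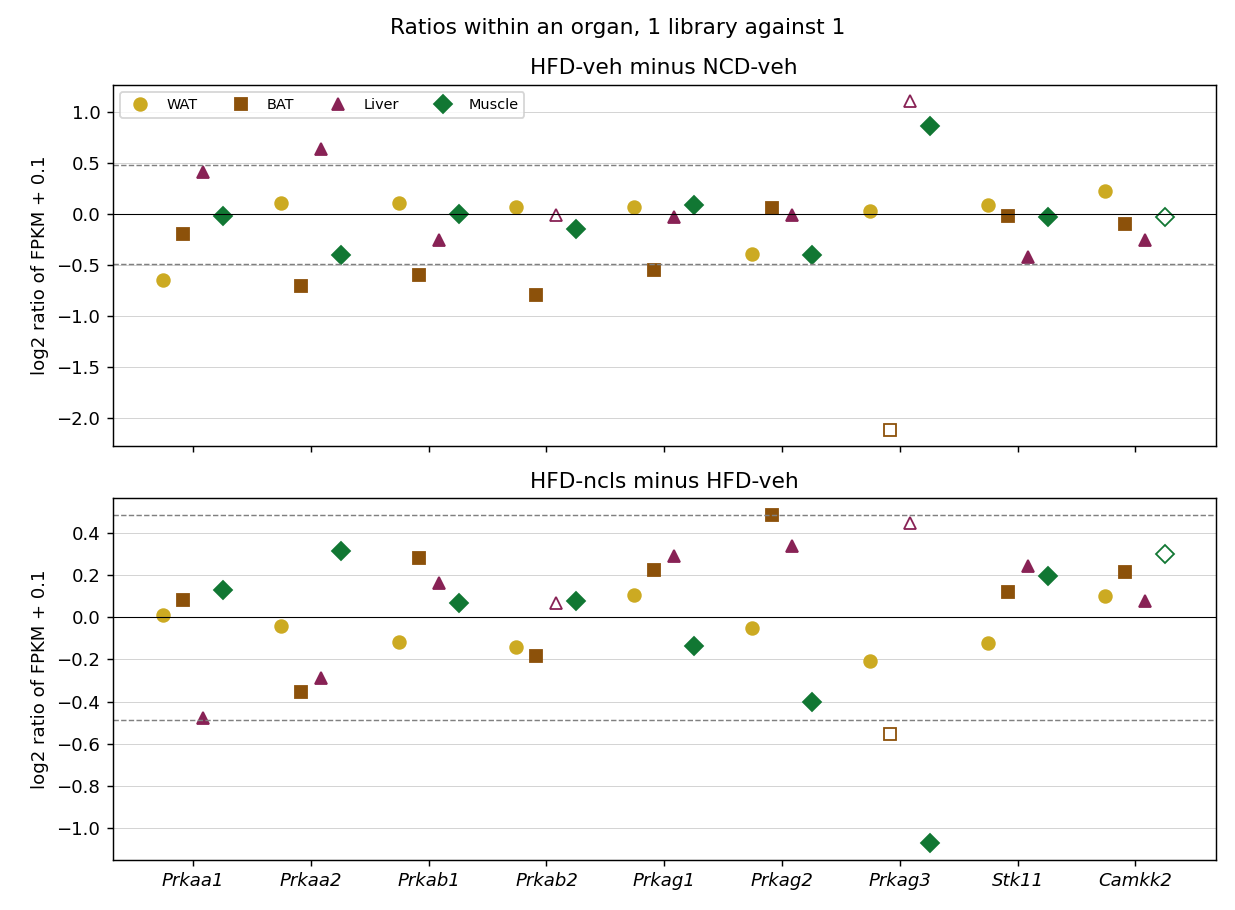
Log2 ratios of FPKM + 0.1 for HFD-veh minus NCD-veh (top) and HFD-ncls minus HFD-veh (bottom), 1 symbol per organ, with dashed lines at 1.4-fold and open symbols for genes under an FPKM of 1 in both libraries. In the upper panel 5 BAT genes lie below the lower line, 4 filled and Prkag3 open at -2.11, and the opposite places of muscle Prkag3 in the 2 panels stand out (log2 ratios of 0.86 and -1.07).

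The lower subunit levels in BAT came with lower transcripts of fast muscle fibres in the same libraries. The 10 fast muscle fibre genes of BAT summed to 2135 FPKM in the NCD-veh library, 895 with HFD-veh and 129.5 with HFD-ncls. As a percent of the muscle library of the same group, their median was 1.79% (range 1.19% to 3.02%), 0.752% (0.439% to 1.05%) and 0.114% (0.0706% to 0.144%). On the same measure, Prkag3 in BAT was at 1.95%, 0.147% and 0.124%, Prkab2 at 2.62%, 1.63% and 1.35%, and Prkaa2 at 5.76%, 4.53% and 2.78%. Prkag3 thus lay within the range of the fast muscle genes in NCD-veh and HFD-ncls BAT and below it in HFD-veh BAT. Prkaa2 lay above that range in all 3 BAT libraries, and Prkab2 in the 2 high-fat ones. None of the 10 genes was at 0 in BAT. The 6 slow muscle fibre genes did not follow them with diet, summing to 24.0, 29.6 and 3.09 FPKM in the same order of BAT libraries, with 3 higher and 1 lower by over 1.4-fold in HFD-veh and none at 0. Prkab1 and Prkag1, which were also lower in HFD-veh BAT, were lower in muscle than in BAT, by log2 differences of -1.24 and -0.58. From HFD-veh to HFD-ncls BAT, Prkab1 went from 7.43 to 9.05 FPKM and Prkag1 from 24.8 to 28.9. The part of muscle transcripts in the BAT differences was not tested. In WAT all 3 genes stood at 4.27% to 7.76% of muscle, far above the fast muscle genes there, and their source was not tested.

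**Figure D5:**
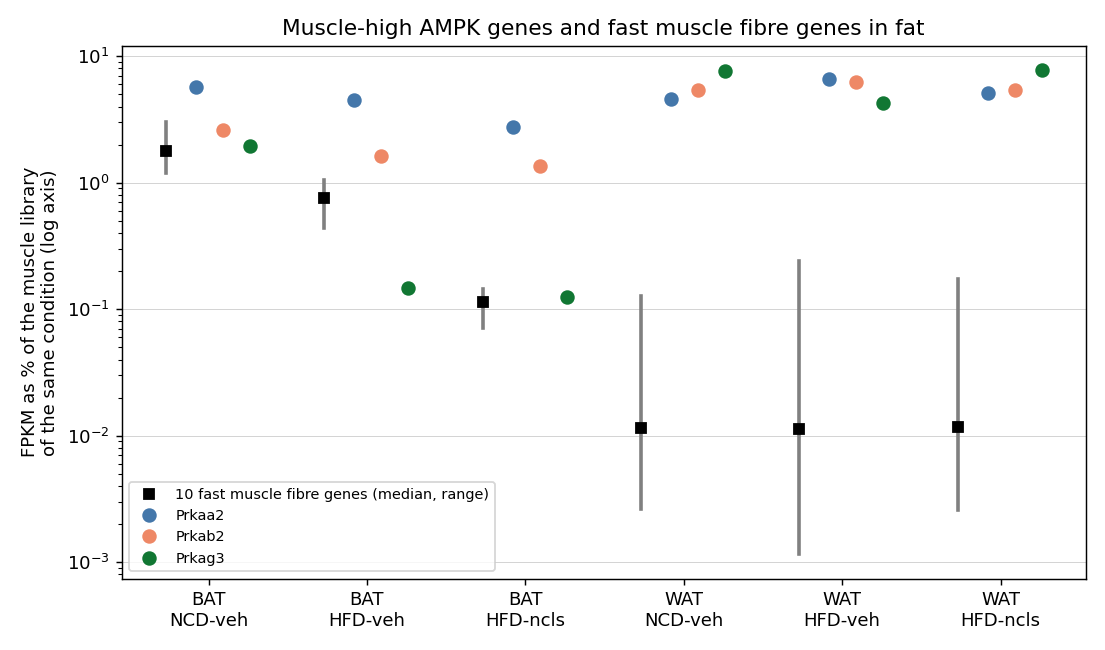
FPKM in BAT and WAT as a percent of the muscle library of the same group (log axis) for Prkaa2, Prkab2 and Prkag3 and for 10 fast muscle fibre genes (square, median; bar, range). The median of the fast muscle genes drops from 1.79% to 0.114% across the BAT libraries, and in WAT the 3 AMPK genes lie well above it.

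The genes most alike to each member, by Pearson's r of log2(FPKM + 0.1) over the 12 libraries among 13648 genes, followed the organ differences, since the 12 points share 4 organs. The 3 closest were Zfp704, Bbs1 and Taf1 for Prkaa1, Lrtm1, Sar1b and Nt5c3 for Prkaa2, and Slc35b2, Stxbp2 and C330006A16Rik for Prkab1. They were 1700025G04Rik, Cacna2d1 and Gm14492 for Prkab2, Hlx, Get4 and Dnajc4 for Prkag1, Cmc1, Foxred1 and Lyrm5 for Prkag2, and Psmc5, Rab10 and Tmem161a for Prkag3. Tex38, Gm9895 and Uspl1 were closest to Stk11, and Pabpc1, Zdhhc20 and Pla2g15 to Camkk2. The highest r of a member ran from 0.905 for Stk11, the gene with the flattest pattern, to 0.996 for Camkk2. Between members, Prkaa2 and Prkag2 ran most oppositely, with r = -0.91 over the 12 libraries.

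Around the complex, 60 genes in 6 lists of AMPK biology were followed. Of the 18 substrates and targets of AMPK, 11 were higher and 6 lower in muscle than in liver (limma, adjusted p under 0.05), beside 74.7% of all genes called in that pair. Gys1, the muscle glycogen synthase, had a mean of 121 FPKM in muscle and 0.782 in liver, and Gys2, the liver form, 0.288 and 67.1. Acacb, which makes the malonyl-CoA that restrains fatty acid entry into mitochondria, was at 84.1 ± 8.98 FPKM in BAT, 43.6 ± 9.66 in muscle, 11.1 ± 7.81 in liver and 10.8 ± 2.23 in WAT (SD, n = 3). In the list of AMP handling, Ak1 and Ampd1, the adenylate kinase and AMP deaminase of muscle, had means of 680 and 481 FPKM in muscle against 0.226 and 0.0636 in liver. Among partners of the complex, Stradb, which forms the active LKB1 complex, was highest in muscle at 45.4 ± 3.37 FPKM, and Camkk1, the relative of Camkk2, was under 1 FPKM in all 12 libraries.

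On high-fat feeding, the liver stood out in the substrate list. Of 15 substrates with an FPKM of at least 1, 8 were higher in HFD-veh than in NCD-veh liver by over 1.4-fold and none lower, beside 13.3% of all genes higher and 10.5% lower, with a median log2 ratio of 0.56 against 0.04 over all 10016 genes. Srebf1, a regulator of lipid synthesis, went from 13.3 to 69.9 FPKM, Acacb from 3.02 to 11.6, and Acaca, the acetyl-CoA carboxylase of fatty acid synthesis, from 4.0 to 10.99. In HFD-ncls liver these 3 were at 95.04, 18.6 and 11.6 FPKM, so none of them had moved back towards chow. In WAT, Acaca was 2.32-fold lower in HFD-veh (77.8 to 33.5 FPKM) and was 31.0 in HFD-ncls. In muscle, 3 of 16 substrates were lower in HFD-veh (5.51% of all genes) and 5 higher in HFD-ncls (8.46%), with Tbc1d1, Tbc1d4 and Pfkfb3 in both sets. Tbc1d1, a regulator of glucose uptake, was at 11.9, 7.47 and 12.2 FPKM in the chow, HFD-veh and HFD-ncls libraries. Tbc1d4 was at 5.97, 3.88 and 6.61, and Pfkfb3, an activator of glycolysis, at 143, 45.6 and 95.4. As with Prkag3, the HFD-veh muscle library was the one apart for Tbc1d1 and Tbc1d4, and both comparisons share it. Pfkfb3 was also lowest there, but its HFD-ncls level lay between those of HFD-veh and chow. Sik1, another kinase that LKB1 activates, passed the fold towards HFD-veh in all 4 organs. Its ratios were 1.44 in WAT, 2.18 in BAT, 1.63 in liver and 1.60 in muscle, each from 1 library against 1. Of all genes, 16.3%, 9.34%, 13.3% and 7.74% were higher by that fold in these organs. How many were higher in all 4 was not computed. In the list of 12 such kinases, Nuak2 in WAT and Mark2 in BAT were also higher, and Sik2 in WAT and Mark4 in liver were lower.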

How the data were processed

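Total RNA of 12 mouse tissue samples was sequenced. The authors mapped the reads to mm9 by TopHat, and the deposited FPKM come from Cufflinks on RefSeq genes, 1 per symbol and library. Strandedness is not given in the sources used here. The spans of 7 of the 9 genes (not Prkag3 or Camkk2), introns included, overlap another annotated gene. Whether exons overlap was not checked, so it is not known if reads of such pairs could be told apart. Of 22276 symbols, 86 lacked a value in at least 1 library and were left out where needed. FPKM are not counts, so no count test was used, and depths estimated from the steps of low values are approximate.

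Organs were compared with limma 3.58.1 (R 4.3.3) on log2(FPKM + 0.1) with organ and group as terms, 6 residual degrees of freedom and Benjamini-Hochberg adjustment over the 13648 genes that reached an FPKM of 1 in any library. This takes the 3 libraries of an organ as its spread. These libraries came from 3 different groups, and so from different mice, but nothing says whether organs share mice. Fold differences understate low genes because of the pseudocount of 0.1. Diet and narciclasine had 1 library per organ and group and were described only. Python 3.11.15, numpy 2.4.6 and pandas 2.3.3 were used, and the limma script was tested on simulated data.

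The 9 genes and all lists were chosen with earlier results of these data known. Named genes were the members, list genes and the 3 genes most correlated with each member. The values of 1 listed gene are not reported here. Positions are from GENCODE for mm9. Alternatives covered the pseudocount, the FPKM filter, rescaling by the median ratio, the group term, limma's trend, the fold and leaving out each library.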

Additional observations from a re-analysis of the deposited data

Results flagged for a closer look

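Prkaa2, the catalytic subunit gene that led in liver and muscle, moved in opposite directions with diet in liver and BAT. It was 1.55-fold higher in HFD-veh than in NCD-veh liver (4.46 to 6.99 FPKM) and 1.63-fold lower in BAT (2.08 to 1.24 FPKM), a difference of 1.34 between the log2 ratios of liver and BAT. With 1 library in each organ and group, this difference was not tested.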

How the results depend on the processing

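Between organs, the counts of members called stayed within 1.5 times under every alternative except rescaling, which took BAT minus WAT from 5 to 8. All genes called for that pair went from 10627 to 8933 of 13648. Rescaling also reversed the log2 difference of Prkaa2 (0.37) and Prkab1 (0.75) for BAT minus WAT, of Prkag1 (0.0794) and Stk11 (0.75) for Liver minus WAT and of Prkag1 for Muscle minus WAT (0.38), because it adds back the shift of the median gene against WAT. Limma's mean trend and leaving out the group term changed the side of the threshold only for Camkk2 liver minus BAT (lost, trend) and Prkaa1 muscle minus liver (gained, both). Leaving out each library reversed differences that were not called: Prkab1 BAT minus WAT ranged from -0.15 to 0.13, Prkag1 BAT minus WAT from -0.0832 to 0.215, Prkab1 Liver minus WAT from -0.0401 to 0.158, Stk11 Liver minus WAT from -0.153 to 0.0664, Prkab1 Liver minus BAT from -0.0851 to 0.190 and Prkag3 Liver minus BAT from -0.75 to 0.83. Of the organ counts, leaving out a library moved muscle minus WAT between 7 and 9 and muscle minus liver between 6 and 8. The pseudocount set the size of folds that involve low levels: with a pseudocount of 1, muscle minus liver was 5.39 for Prkag3 and 6.10 for Prkab2 and muscle minus WAT -2.23 for Camkk2, and with 0.01 muscle minus liver was 8.18 for Prkag3, each still called. Within organs, a 2-fold threshold left 0 members for diet in WAT, BAT, liver and muscle. Of all genes, it left 640 higher and 472 lower of 12208 in WAT, and 238 and 210 of 10443 in BAT. In liver it left 286 and 227 of 10016, and in muscle 301 and 93 of 9585. The diet count in BAT was 2 at an FPKM of at least 5, and that in liver was 2 with no FPKM filter. For narciclasine, BAT gave 1 with no filter (Prkag3) or after rescaling (Prkag2), and liver 1 with a pseudocount of 0.01 or after rescaling (Prkaa1). Why these counts moved was not tested beyond the fewer or further genes each setting lets in. Counts of all genes within an organ are not given here for the other FPKM filters, the other pseudocounts or rescaling. No paired analysis was possible because the labels give no replicate numbers and each organ and group has 1 library. Depth limits Prkag3 in BAT and liver, with about 2.67 to 51.9 fragments per library.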
